A study of Drosophila melanogaster with 4 samples.

Results

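Sites that carried both ASH1 and FSH but were weak for both proteins made up 775 of the 7022 places where exactly 1 ASH1 peak met exactly 1 FSH peak in S2-DRSC cells. These sites were chosen by their values: an ASH1 peak and an FSH peak had to overlap by at least 1 bp, neither was allowed to overlap another peak of the other list, and both had to have a score below 300. The mitochondrial sequence was left out. The score comes from the peak caller and was taken to be the P value of enrichment over input chromatin on a scale of -10 times log10, so that a score of 300 stands for a P value of 1e-30 and the deposited lists begin at 50.02. The remaining one-to-one pairs were split at the same limit into 509 pairs in which ASH1 was below 300 and FSH was not, 1329 pairs in which FSH was below 300 and ASH1 was not, and 4409 pairs with both scores at 300 or more. Of all one-to-one pairs, 11.0% were below 300 for both, 18.3% had an ASH1 score below 300 and 30.0% had an FSH score below 300. These shares are what the limit selects and carry no test.

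S2-DRSC is an untreated Drosophila cell line of embryonic origin that resembles blood cells, and all libraries came from 1 chromatin preparation of it. The 4 libraries used 2 antibodies against ASH1, raised to its amino-terminal and carboxy-terminal portions, and 2 against FSH, which per the extraction notes recognise both isoforms or the long isoform only. One of these is labelled for the short isoform FSH-S in the sample labels. The authors pooled the antibodies of each protein before peak calling, so that 1 list of 10746 ASH1 peaks and 1 list of 8822 FSH peaks could be analysed, with no spread between replicates and no read depth per peak. An ASH1 peak and an FSH peak at one place show enrichment of both proteins in the population, and it cannot be told apart whether both sat on the same chromosome copy.

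ASH1 is a trithorax group protein with a SET domain that methylates histone H3. FSH, the product of female sterile (1) homeotic, is the fly member of the BET family, whose paired bromodomains bind acetylated histone tails. Both genes are known as activators of the homeotic genes. A peak is a stretch of genome over which immunoprecipitated fragments exceed those of input chromatin, and its score grows with that excess and with sequencing depth.

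Among all ASH1 peaks below 300, those paired with a weak FSH peak were a minority. Of 3142 such ASH1 peaks (29.2% of the ASH1 list), 775 (24.7%) were in the weak pairs, 509 (16.2%) were paired with an FSH peak of 300 or more, 457 (14.5%) belonged to larger groups of overlapping peaks, and 1401 (44.6%) met no FSH peak. The 2751 FSH peaks below 300 (31.2% of the FSH list) were distributed differently. Of these, 775 (28.2%) were in the weak pairs, 1329 (48.3%) were paired with an ASH1 peak of 300 or more, 187 (6.8%) were in larger groups, and 460 (16.7%) met no ASH1 peak. By count, the largest group of weak FSH peaks lay on a strong ASH1 peak. That of weak ASH1 peaks lay where no FSH peak was called. Over the whole ASH1 list, 8813 of 10746 peaks met an FSH peak. At 300 or more, 532 ASH1 peaks and 215 FSH peaks met no peak of the other list. Lacking a partner was thus less common in each whole list than among its weak peaks. In the whole lists too it was more common for ASH1 than for FSH. Strong ASH1 partners were common in general, and less so for weak FSH peaks. ASH1 was at 300 or more in 5738 of all 7022 one-to-one pairs and in 1329 of the 2104 with a weak FSH peak. Within one-to-one pairs, FSH was below 300 in 775 of the 1284 pairs with a weak ASH1 peak (60.4%, exact 95% interval 57.6 to 63.0) and in 1329 of the 5738 pairs with ASH1 at 300 or more (23.2%, 22.1 to 24.3). Seen from the FSH side, ASH1 was below 300 in 775 of 2104 pairs with a weak FSH peak (36.8%, 34.8 to 38.9). Over all 7022 one-to-one pairs this share was 18.3%. Intervals of this kind count every peak as an independent draw and hold no error other than that of counting.

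In the weak pairs the ASH1 scores ran between 50.04 and 299.9 with a median of 143.6 and quartiles of 93.0 and 210.5. Their FSH scores ran between 50.4 and 299.8 with a median of 118.7 and quartiles of 77.5 and 192.9. For pairs with both scores at 300 or more the medians were 2109 for ASH1 and 1340 for FSH, and many strong peaks carry a shared value of 3100, above which few scores lie. The lists were called on different libraries and their scores have no common scale. Sums and differences of both scores below therefore served to pick pairs at the extremes. The sum was also set beside the overlap share, as a description only.

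The rank of one protein said little about that of the other below the limit. Spearman's rho between both scores was 0.10 over the 775 weak pairs and 0.45 over all 7022 pairs, a description of peaks that share the cells, the chromatin and the input control, and in the weak pairs a range shortened by the selection. When both scores were split at 100 and 200, all 9 combinations were filled. The range below 100 starts at 50 and is narrower than the others, so that counts do not give the density of pairs. Relative to the width of the ranges, pairs were densest where both scores were below 100. The fullest by count held 132 pairs with both scores from 100 to below 200 (17.0%). It was followed by 119 pairs with ASH1 in that range and FSH below 100 (15.4%). Both scores were below 100 in 97 pairs (12.5%) and both were from 200 up in 69 (8.90%). The emptiest combination by count, with ASH1 below 100 and FSH from 200 up, still held 44 pairs (5.68%).

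**Figure D1:**
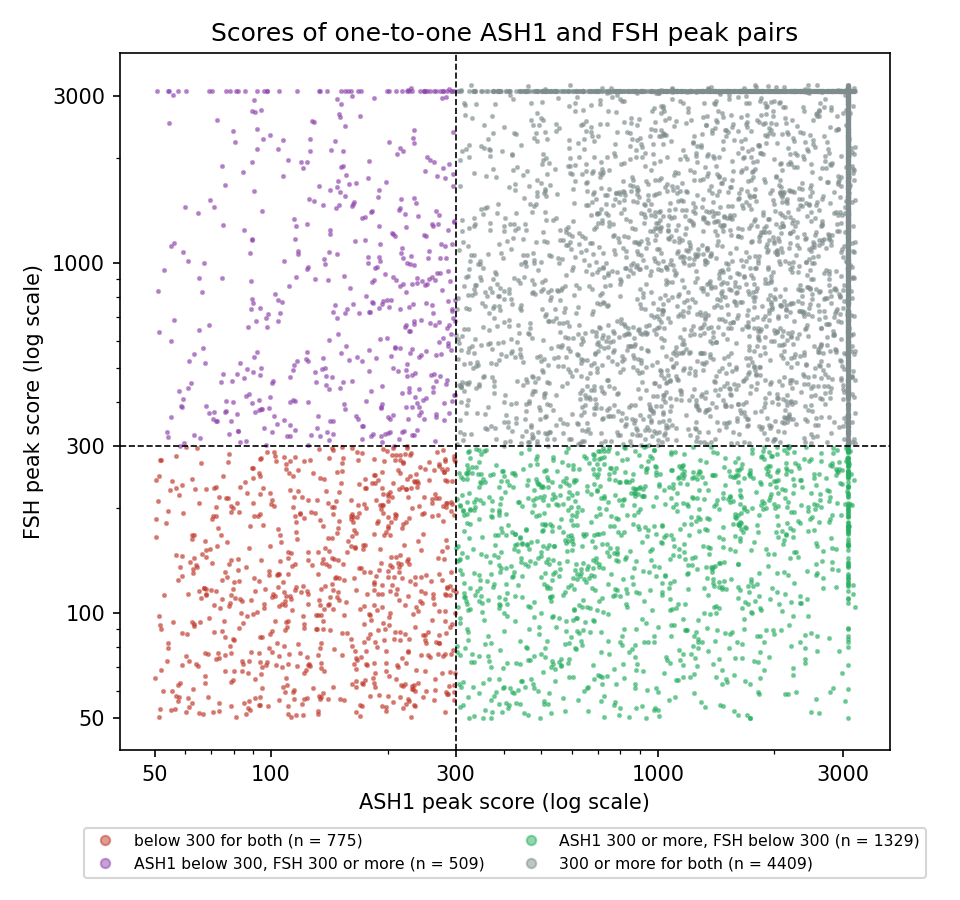
Each point is a one-to-one pair, with the ASH1 score on the horizontal and the FSH score on the vertical axis, both logarithmic, and dashed lines at the limit of 300. The 775 weak pairs fill the lower left corner without a visible trend, and the line of points at 3100 is the shared value of many strong peaks.

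At the lower end, the pair with the smallest sum of scores lay on X. Its ASH1 peak covered chrX:17385361-17385837 with a score of 51.3 and its FSH peak chrX:17385060-17385787 with a score of 50.4, and both shared 427 bp. Another pair on X followed, with ASH1 at chrX:3265143-3265866 (score 51.7) and FSH at chrX:3265140-3265882 (score 53.2). Here both peaks ended and began at nearly the same bases, and the overlap share, the bases in both peaks divided by the bases in either, was 97.4%. The next lay on 2R, with ASH1 at chr2R:12218130-12218763 (55.1) and FSH at chr2R:12218178-12218854 (52.8). Scores within a few units of the cut-off were thus found at pairs that overlapped by 54.9% as well as at pairs with nearly equal intervals.

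At the upper end, the largest sum belonged to a pair on 2L, with ASH1 at chr2L:8334543-8335273 (score 296.8) and FSH at chr2L:8334585-8335237 (score 281.8). It was followed by a pair on 2L with scores of 297.2 and 276.0 and by a pair on 3R with 299.5 and 271.1 for ASH1 and FSH. Another pair in which both scores were near the limit lay on 3R, with 277.8 for its ASH1 peak at chr3R:4869233-4869931 and 292.8 for FSH. Just inside the limit, 1 pair on 2R had an ASH1 score of 299.9 with an FSH score of 114.6, and 1 on 3R an FSH score of 299.8 with an ASH1 score of 224.2. Just outside it, 1 pair on 3R had an FSH score of 300.1 with an ASH1 score of 58.3, 1 on 3L an ASH1 score of 300.2 with an FSH score of 153.7, and 1 on 3L an FSH score of 300.6 with an ASH1 score of 207.3. There was no gap in the scores at 300.

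The scores of some weak pairs were far apart. FSH stood most above ASH1 at a pair on 2L with ASH1 at chr2L:17734479-17735051, where the scores were 60.4 for ASH1 and 298.4 for FSH. The reverse was most marked at another pair on 2L, with ASH1 at chr2L:2865721-2866436, where they were 297.4 for ASH1 and 56.6 for FSH. In these pairs 1 protein was near the limit of the selection and the other near the cut-off of the peak caller.

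The peaks of the weak pairs were short. In them the median ASH1 length was 603 bp (quartiles 511 and 781) and the median FSH length 642 bp (545 and 822.5), against 1089 bp (780 and 1603) and 1200 bp (854 and 1709) in pairs with both scores at 300 or more. At 1000 bp or more were 86 ASH1 peaks (11.1%) and 99 FSH peaks (12.8%) of the weak pairs. Length and score come from the same reads and the same peak calling, so these values describe the selection and were not tested.

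The length of a weak peak also differed with its partner. Weak ASH1 peaks had a median of 603 bp with a weak FSH partner, 624 bp with an FSH partner of 300 or more and 558 bp with no partner. Weak FSH peaks had a median of 642 bp with a weak ASH1 partner, 767 bp with an ASH1 partner of 300 or more and 583 bp with no partner. The weak pairs were between those with a strong partner and those with none for both proteins, with a wide step to the strong partner for FSH and a small one for ASH1. The median score of weak ASH1 peaks was 143.6 in the weak pairs, 163.2 beside a strong FSH peak and 106.6 without partner, and that of weak FSH peaks was 118.7, 159.8 and 99.3. Weak peaks in larger groups of overlapping peaks did not keep this order: for ASH1 they were longer than those of the weak pairs (668 bp) but had a lower score (125.3), and for FSH they measured 724 bp with a score of 123.3.

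Longer peaks had higher scores inside the selection as well. Where both scores were below 100, ASH1 measured 522 bp and FSH 561 bp at the median, where both were from 100 to below 200 they were 605 and 639.5 bp, and from 200 up they were 740 and 843 bp. Spearman's rho between score and length over the 775 weak pairs was 0.38 for ASH1 and 0.27 for FSH. The lengths of both peaks of a pair ran together with a rho of 0.72, against 0.89 in the 4409 pairs with both scores at 300 or more.

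**Figure D2:**
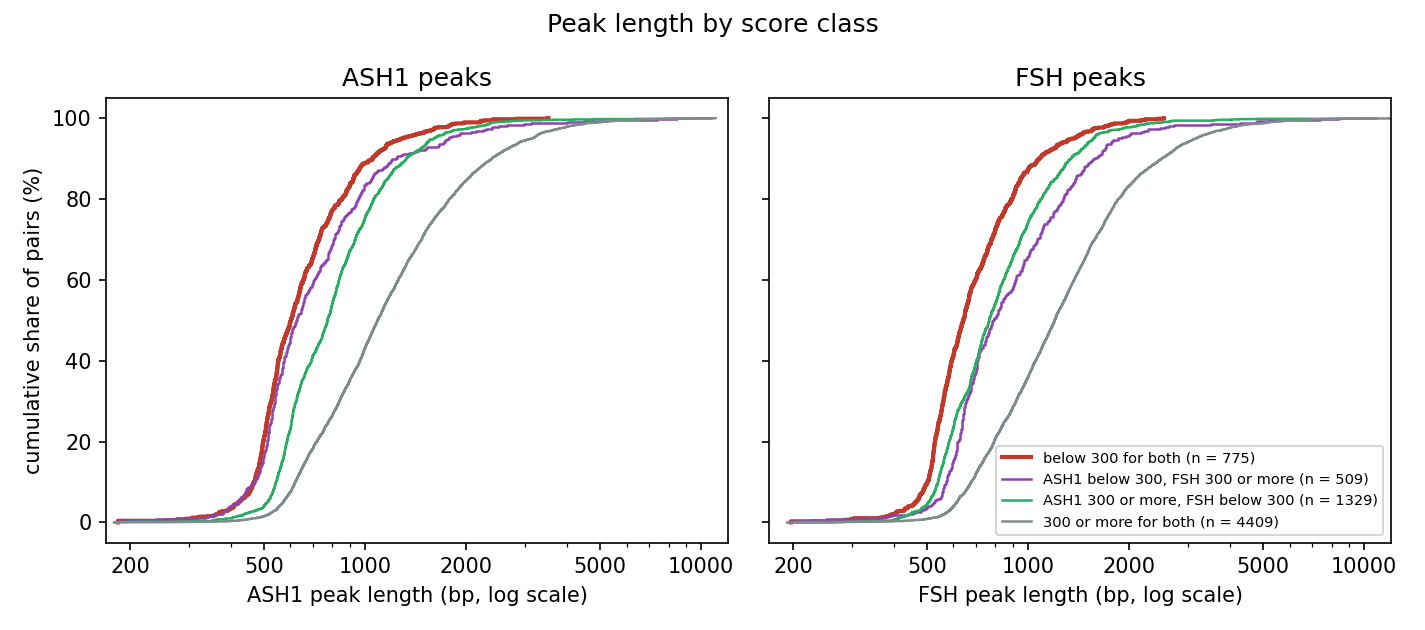
Cumulative share of pairs by peak length, on a logarithmic axis in bp, for ASH1 peaks on the left and FSH peaks on the right, with 1 line per score class. The weak pairs form the leftmost line over most of both panels, with ASH1 at a median of 603 bp and FSH at 642 bp.

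A few weak pairs were long. The largest lay on 2R, where an ASH1 peak of 3514 bp at chr2R:4931900-4935413 had a score of 102.3 and enclosed an FSH peak of 874 bp with a score of 95.1, so that the centres lay 946 bp apart. On 3R, an ASH1 peak of 2808 bp at chr3R:11333792-11336599 with a score of 254.6 overlapped an FSH peak of 1735 bp with a score of 75.7. On 3L, the peaks measured 2384 bp for ASH1 and 1214 bp for FSH, with scores of 238.5 and 229.0. In these 3 pairs the ASH1 peak was the longer one, while FSH was longer in 485 of all 775 weak pairs (62.6%, 59.1 to 66.0).

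Both peaks of a weak pair covered nearly the same bases, as in other pairs. The overlap share had a median of 85.2% (quartiles 73.4 and 91.7) in the weak pairs, against 80.8% in pairs with only FSH at 300 or more, 84.0% in pairs with only ASH1 at 300 or more, and 87.0% in pairs with both. At least 50% of the joint stretch was shared in 744 of the 775 weak pairs (96.0%, 94.4 to 97.3) and in 6033 of the 6247 other pairs (96.6%, 96.1 to 97.0). The centres were 38.5 bp apart at the median (quartiles 16 and 81.5), compared with 41.0, 48.0 and 54.5 bp in the other classes in the same order. Centres within 100 bp of each other were found in 611 weak pairs (78.8%, 75.8 to 81.7) and in 3006 of the 4409 pairs strong for both (68.2%). The peaks of the weak pairs were also shorter, and the part of length in this distance was not tested.

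Even where both scores were below 100, the median overlap share was 87.2%, against 84.9% with both from 100 to below 200 and 85.8% with both from 200 up. Spearman's rho between the sum of the scores and the overlap share was -0.07 over the 775 pairs. Over the range of the selection, the overlap share thus had no visible order with these score ranges or with the sum. The sum adds scores that have no common scale, so this rho is a rough description. The median distance between the left edges of both peaks was 41 bp, and that between the right edges was also 41 bp, against 57 and 55 bp in pairs strong for both. The same first base was called for both proteins in 6 weak pairs and the same last base in 9, and no weak pair had both edges in common.

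Both peaks were staggered in 384 weak pairs (49.5%), the ASH1 peak lay inside the FSH peak in 294 (37.9%, 34.5 to 41.5), and the FSH peak lay inside the ASH1 peak in 97 (12.5%, 10.3 to 15.1). Among the other pairs these shares were 44.6% (43.4 to 45.8), 40.1% (38.8 to 41.3) and 15.4% (14.5 to 16.3), so that the layout of the weak pairs was close to the general one. Median scores for ASH1 and FSH were 119.3 and 142.5 where ASH1 lay inside, and 179.8 and 91.4 where FSH lay inside, so that each protein had its higher scores in the layout in which its own peak was the enclosing one. In staggered pairs they were 162.3 and 112.1. Within a pair the FSH peak was longer by 27 bp at the median (quartiles -33 and 99.5), a smaller difference than the 58 bp of pairs strong for both.

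**Figure D3:**
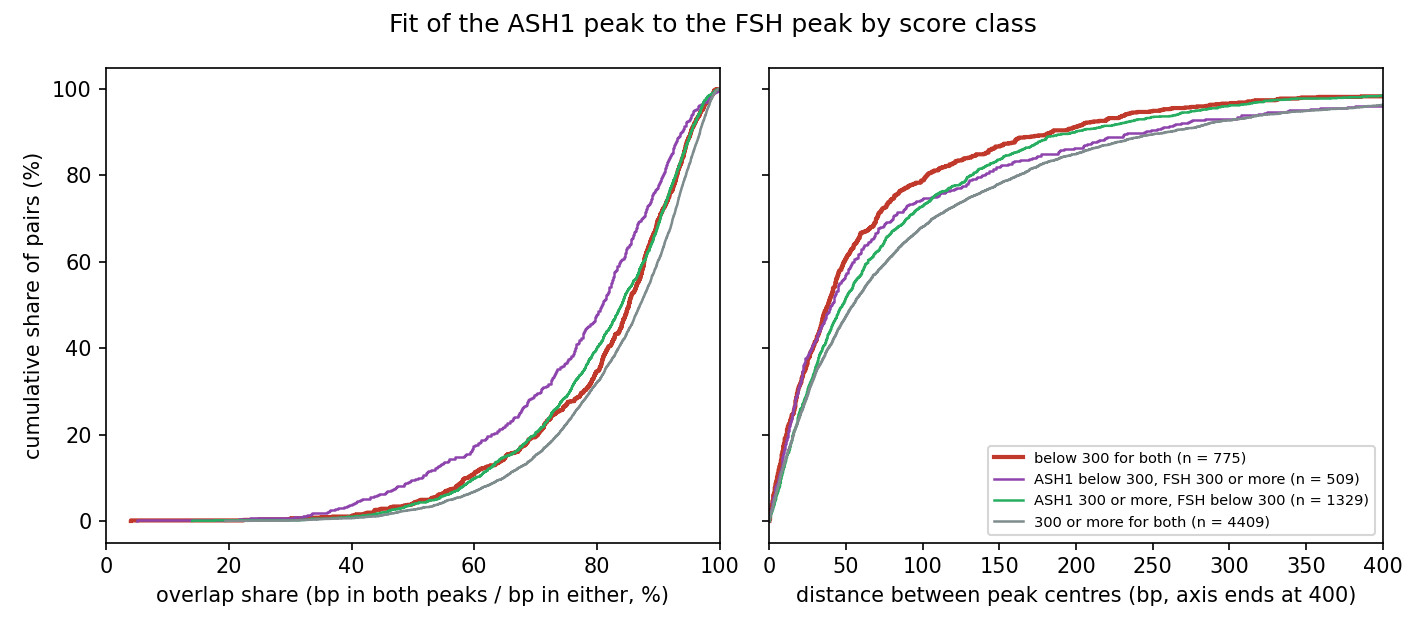
Cumulative share of pairs by overlap share in percent, on the left, and by the distance between peak centres in bp, on the right, with 1 line per score class. In the overlap share the weak pairs (median 85.2%) lie close to the pairs with only ASH1 at 300 or more, and in the centre distance they form the leftmost line over most of the range.

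The extremes of overlap show what the 1 bp limit admits. The smallest overlap was 43 bp, or 4.0% of the joint stretch, between an ASH1 peak at chrX:3334420-3335016 (score 61.0) and an FSH peak at chrX:3333941-3334462 (score 113.0), whose centres were 516.5 bp apart. The next smallest was 22.4%, also on X, in the pair with the lowest ASH1 score of all weak pairs, 50.04. The joint stretch of its peaks lay 12 bp from the ASH1 peak of a pair strong for both. At the other end, a pair on the heterochromatic part of 3R reached 99.5%, with an ASH1 peak of 2410 bp inside an FSH peak of 2421 bp and scores of 153.0 and 298.1. A pair on 3L with ASH1 at chr3L:13182973-13183590 reached the same share with scores of 196.1 for ASH1 and 83.7 for FSH. On 3R a pair with ASH1 at chr3R:20431874-20432441 shared 99.1%.

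Weak pairs often lay next to another peak. On the arms X, 2L, 2R, 3L and 3R, which held 707 of them, another peak of either list lay within 1 kb of 326 weak pairs (46.1%, 42.4 to 49.9), against 2231 of the 5956 other one-to-one pairs (37.5%, 36.2 to 38.7). By class, the share was 41.1% (36.6 to 45.7) in other pairs with only FSH at 300 or more. It was 34.4% with only ASH1 at 300 or more and 38.0% with both. Within 500 bp the difference was wider, with 254 weak pairs (35.9%, 32.4 to 39.6) and 1481 of the other pairs (24.9%, 23.8 to 26.0). At larger distances no such difference was seen: within 5 kb the shares were 79.6% (76.5 to 82.5) and 80.8% (79.8 to 81.8), and within 10 kb 89.4% and 91.7%. The median gap to the nearest other peak on these arms was 1281 bp for weak pairs and 1599 bp for pairs strong for both. For pairs with only FSH at 300 or more it was 1476 bp, and this class came closest to the weak pairs. Its share within 500 bp was 28.5% (24.5 to 32.8), and its interval overlapped that of the weak pairs there and at 1 kb. Scores and neighbours come from the same calls, and the difference was not tested.

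**Figure D4:**
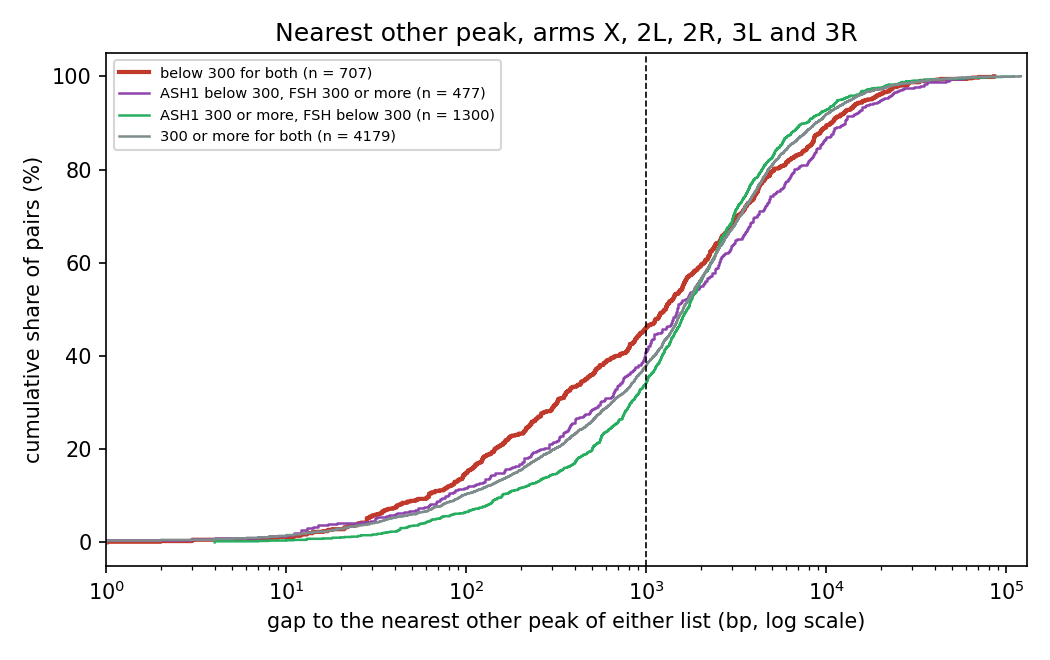
Cumulative share of pairs on the 5 main arms by the gap to the nearest other peak of either list, in bp on a logarithmic axis, with 1 line per score class and a dashed line at 1 kb. The line of the weak pairs runs above the others over most of the range up to 1 kb, where it stands at 46.1%, and lies among them at 5 kb.

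The close neighbours were of much the same kind as those of other pairs. Over all sequences, 338 weak pairs had another peak within 1 kb, and in 223 of these the nearest peak had a score of 300 or more (66.0%, 60.7 to 71.0), against 1568 of 2311 other pairs with such a neighbour (67.8%, 65.9 to 69.8). It belonged to a pair strong for both in 131 weak pairs (38.8%), against 42.6% of the others, and it was a peak with no partner in 72 (21.3%), against 22.4%. In 41 weak pairs it was in a larger group of overlapping peaks (12.1%, against 9.82%) and in 41 it was another weak pair (12.1%, 8.85 to 16.1, against 8.44%, 7.34 to 9.65). The nearest peak carried a score of 3100 or more in 70 of the 338 (20.7%), against 18.4% of the others. The weak pairs with such a close neighbour resembled those without. Their ASH1 and FSH scores had medians of 148.0 and 116.7 with a neighbour within 1 kb, against 140.6 and 120.4 without, the lengths were 623.5 and 652.5 bp against 575 and 631 bp, and the overlap shares were 84.4% and 85.6%. When peaks of the same list up to 1 kb apart were joined before pairing, 495 weak pairs were left, so the number depends on where the peak caller ended one peak and began the next.

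Whatever the distance, the nearest other peak belonged to a pair strong for both in 326 of 775 weak pairs (42.1%), it had no partner in 179 (23.1%) and it belonged to another weak pair in 78 (10.1%, 8.04 to 12.4). Over the 6247 other pairs these shares were 43.3%, 21.9% and 7.75% (7.10 to 8.44), which is close to the weak pairs. Weak pairs that followed each other along a chromosome with no other peak of either list between them formed 61 runs with 130 of the 775 pairs. Of these, 56 runs held 2 pairs, 3 held 3, 1 held 4 and 1 held 5. Runs were not counted for the other classes, so it cannot be told whether this number is high or low.

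The longest run lay on X and began with the weakest of all pairs. It spanned chrX:17385060-17412860, or 27.8 kb, and its 5 pairs had ASH1 scores of 51.3, 218.2, 104.5, 140.6 and 90.0 in order along the chromosome. Their FSH scores were 50.4, 74.4, 174.3, 105.3 and 99.7. By its definition a run holds no peak of 300 or more for either protein. The scores of both proteins had no common order along it. The overlap shares were 54.9%, 92.9%, 87.2%, 85.6% and 55.3%.

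The run of 4 lay on 3R within 9.34 kb, at chr3R:12803561-12812896. Its ASH1 scores were 67.6, 249.6, 156.6 and 203.3 and its FSH scores 160.3, 83.6, 107.2 and 137.2. The last of these pairs was broad, with an ASH1 peak of 1853 bp and an FSH peak of 2000 bp. This run began 77.7 kb beyond the weak pair at Fab-7 described below. Shorter runs of 3 pairs included one on X at chrX:13773214-13775679, where 3 evenly sized sites with ASH1 scores of 84.3, 104.8 and 79.8 and FSH scores of 108.5, 56.4 and 116.9 followed each other within 2.47 kb. Another was on 3R at chr3R:4949969-4953218, with ASH1 scores of 116.3, 98.6 and 169.2 and FSH scores of 181.7, 128.5 and 192.6.

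Other weak pairs were isolated. On the main arms the farthest from any other peak was a pair on 2R with ASH1 at chr2R:1767679-1768516 (score 142.3, FSH score 89.6), 85.7 kb from the next peak. It was followed by a pair on 3R at 70.4 kb, with scores of 180.2 and 98.8, and by a pair on 2L at 64.5 kb, with scores of 99.3 and 221.0 for ASH1 and FSH. The largest distances of all, 416, 194 and 192 kb, were on the sequences U and Uextra. These are unplaced scaffolds strung together, so their distances are no distances along a chromosome, and the median gap of 33512 bp for weak pairs on heterochromatic and unplaced sequence cannot be set beside the arms.

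The share of weak pairs differed between chromosomes. On X, 151 of 1097 one-to-one pairs were weak for both (13.8%, 11.8 to 15.9), against 556 of 5566 on the main autosomal arms (9.99%, 9.21 to 10.8). Single autosomal arms had overlapping intervals, with 135 of 1263 on 2L (10.7%), 137 of 1394 on 2R (9.83%), 141 of 1348 on 3L (10.5%) and 143 of 1561 on 3R (9.16%). On chromosome 4 there were 11 of 84 (13.1%), with an interval of 6.72 to 22.2 that includes both X and the autosomal arms.

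The excess on X was larger for ASH1 alone. ASH1 was below 300 in 297 of 1097 pairs on X (27.1%, 24.5 to 29.8) and in 887 of 5566 on the main autosomal arms (15.9%, 15.0 to 16.9). FSH was below 300 in 379 pairs on X (34.5%, 31.7 to 37.4) and in 1628 on the autosomal arms (29.2%, 28.1 to 30.5). Among pairs with a weak ASH1 peak, the FSH peak was weak as well in 151 of 297 on X (50.8%, 45.0 to 56.7) and in 556 of 887 on the autosomal arms (62.7%, 59.4 to 65.9). Within one-to-one pairs, weak ASH1 peaks were thus more common on X, and a smaller share of them had a weak FSH partner. Weak ASH1 peaks with no partner or with several partners are not part of these counts. The score also grows with sequencing depth, and the part of depth in the difference between X and the autosomal arms was not tested. Weak pairs on X were also shorter, ASH1 measuring 556 bp and FSH 592 bp at the median, against 637 and 667.5 bp on the autosomal arms. The same held for pairs strong for both, which measured 918.5 and 1064 bp on X and 1145 and 1249 bp on the autosomal arms, so that the shorter peaks were not confined to the weak sites.

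On sequences assigned to heterochromatin or to no chromosome, 57 of 275 one-to-one pairs were weak for both (20.7%, 16.1 to 26.0). Most of these were on Uextra, with 42 of 155 pairs (27.1%, 20.3 to 34.8), while the heterochromatic parts of the arms held 12 of 81 (14.8%) and U held 3 of 39 (7.69%). Of the 52 pairs on Uextra with a weak ASH1 peak, 42 also had a weak FSH peak (80.8%, 67.5 to 90.4). The 57 weak pairs were short and closely matched, ASH1 measuring 489 bp and FSH 533 bp at the median, with an overlap share of 91.0% and centres 17.0 bp apart. Pairs strong for both on the same sequences were matched as closely, with an overlap share of 92.8% and centres 16.0 bp apart. Median scores of the weak pairs there were 113.5 for ASH1 and 137.1 for FSH, and on the main arms 149.4 and 116.2, so that ASH1 scores were lower and FSH scores higher on the heterochromatic and unplaced sequences. Reads with up to 20 places in the genome were placed at one of them by the authors, and such reads are frequent on repeated sequence. Their part in these values was not tested.

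**Figure D5:**
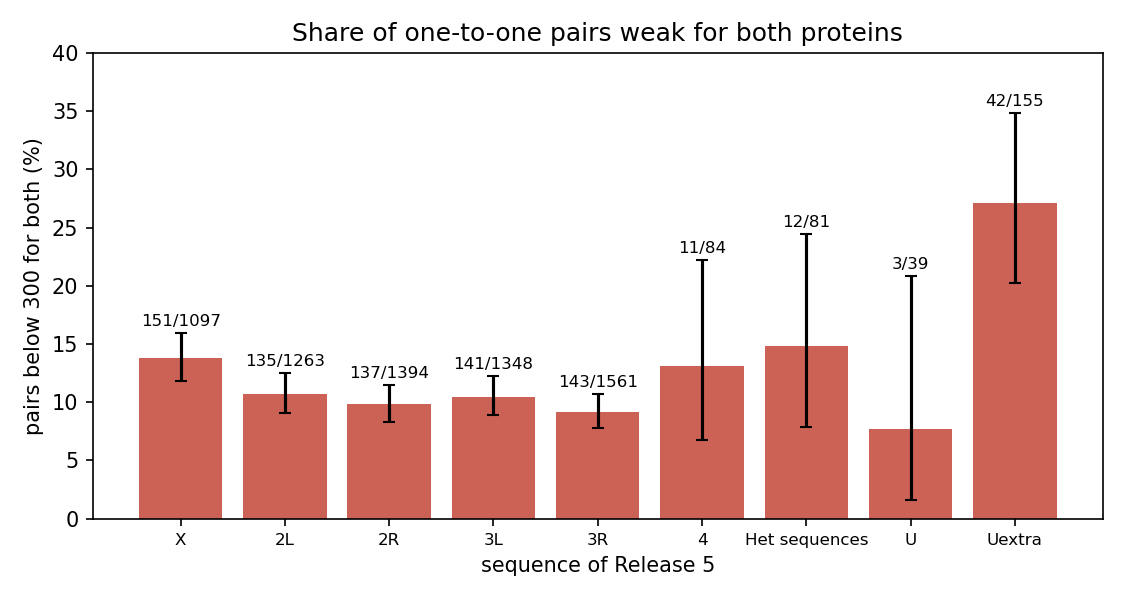
Bars give the share of one-to-one pairs on each sequence that were below 300 for both proteins, in percent, with exact 95% intervals and the counts above them. X (13.8%) stands above the autosomal arms (9.16 to 10.7%), and Uextra (27.1%) stands above all arms.

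Along the main arms the weak pairs were spread widely. There were 6.74 weak pairs per Mb on X, 5.88 on 2L, 6.48 on 2R, 5.75 on 3L and 5.13 on 3R, and the median spacing between them was between 65.5 kb on X and 120 kb on 3R. When each arm was cut into 10 parts of equal length, every part held weak pairs, and their share of the one-to-one pairs ran between 6.15% on 2R and 19.8% on X. The longest stretches without a weak pair were between 844 kb on 2R and 1181 kb on 2L.

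The homeotic gene complexes, whose genes give segments their identity, held 1 weak pair each. Trithorax and Polycomb group proteins oppose each other at these complexes. The stretch taken for the bithorax complex held 13 one-to-one pairs, of which 10 were strong for both and 1 was weak for both. This pair lay at Fab-7, an element between the regulatory domains iab-6 and iab-7 that combines a chromatin boundary with a Polycomb response element. Its ASH1 peak covered chr3R:12724795-12725882 (1088 bp) with a score of 193.5, and its FSH peak covered chr3R:12724602-12725517 (916 bp) with a score of 204.2. They shared 723 bp, or 56.4% of the joint stretch, and their centres were 279 bp apart, above the 95th percentile of 251 bp in weak pairs. The nearest other peak was 15.8 kb away and was an FSH peak with the shared value of 3100. The Antennapedia complex held 20 one-to-one pairs, of which 17 were strong for both and 1 was weak for both, with ASH1 at chr3R:2567215-2568096 (score 88.5) and FSH at chr3R:2567573-2568149 (score 52.8). Here too the overlap share was low, at 56.0%, and the next peak was 17.0 kb away. With 1 weak pair in each complex, no share can be compared with that of the genome. The windows of both complexes and of Fab-7 rest on general knowledge of the Release 5 map, and genes at the other weak pairs were not analysed here.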

How the data were processed

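S2-DRSC chromatin was precipitated with 2 antibodies per protein, giving 4 ChIP-seq libraries of ASH1 and FSH. The authors aligned reads to BDGP Release 5 (Bowtie 0.12.7, reads with up to 20 matches placed at one), merged the alignments of each protein (SAMtools 0.1.9) and called peaks against input (MACS 1.4.0, P value cut-off 1e-05). The deposited score, in a column without header, was taken as the P value on a scale of -10 times log10, since both lists start at 50.02 and the cut-off corresponds to 50. It reflects depth as well as enrichment, so levels were compared within a list. Sums or differences of both scores served to choose pairs to name, and the sum also for a Spearman's rho with the overlap share.

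Peaks were paired at an overlap of at least 1 bp (Python 3.11.15, pandas 2.3.3), tested on simulated data and checked with BEDTools 2.31.1. BED starts were raised by 1. Shares have Clopper-Pearson intervals at 95% (SciPy 1.17.1). Libraries were grouped by protein as pooled by the authors, and no test was made because the scores chose the sites. Named were up to 3 pairs at each extreme of score sum, score difference, size, overlap share and isolation, and those at the limit. The longest runs and the pairs in both homeotic complexes were also named. Members and lists were chosen with earlier results of these data known. The 3 isolated pairs on the main arms were added after their values were seen. Alternatives were another overlap, score limit, set of arms, pairing and neighbour distance. No sequence, gene or TSS was used, as no Release 5 genome was used here.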

Additional observations from a re-analysis of the deposited data

How the results depend on the processing

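Of 45 values recomputed under 10 alternatives, 29 stayed within the interval of the value given above or, for counts, within 1.5 times of it, among them every value on the 5 main arms alone and every median overlap share. The weak share of one-to-one pairs, 11.04%, was 10.31% with an overlap of at least 50% of both peaks, 6.17% with both scores below 200, 15.01% with both below 400, 7.76% with both below the lower quartile of their list (234.8 for ASH1, 221.9 for FSH), and 9.04% over every overlapping pair. With both scores below 200 there were 433 pairs, in which ASH1 measured 555 bp and FSH 602 bp at the median, and below the lower quartiles the lengths were 578 and 616 bp. Joining peaks of a list up to 1 kb apart left 495 pairs (8.06%), of which 0.61% had another peak within 1 kb, since joining removes most such neighbours by construction. The share with another peak nearby, 43.6% at 1 kb over all sequences, was 33.81% at 500 bp, 56.0% at 2 kb and 75.61% at 5 kb. No paired analysis was possible because only the lists called on the pooled libraries of each protein were used here, and for that reason no replicate was left out. Reads of single libraries were not analysed here. Depth per peak is unknown, and weak sites are those most exposed to it.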
